A study of Mus musculus with 32 samples.

Results

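The 10 genes described here mark Kupffer cells or encode scavenger receptors of macrophages: Marco, Clec4f, Vsig4, Timd4, Cd5l, Csf1r, Cd163, Cd68, Lyz2 and Msr1. They were taken by symbol from a table of 20821 gene symbols, and 10 of 10 averaged 1 TPM or more across the mice, as did 11284 genes in all. TPM is a transcript abundance corrected for transcript length and scaled to a fixed total in each library. Kupffer cells are the resident macrophages of the liver. They sit in the sinusoids, where they take up bacteria, particles, dying cells and aged red blood cells from the blood, and they depend on signalling through the CSF1 receptor. Scavenger receptors are the surface proteins that bind such cargo, among them modified lipoproteins, bacterial wall components and hemoglobin.

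The RNA-seq data came from whole livers of adult mice in which glutathione synthesis could be switched off. Both genotypes carried floxed Gclc, which encodes the catalytic subunit of glutamate-cysteine ligase, the first enzyme of glutathione synthesis, and both received tamoxifen at 150 mg/kg intraperitoneally for 5 days and were sampled 14 days later. Gclc KO mice (n = 4) also carried CreERT2, a tamoxifen-activated recombinase, at the ubiquitously active Rosa26 locus, and Gclc WT mice (n = 4) did not, so effects of the recombinase and of Gclc loss cannot be told apart. The deletion is not confined to hepatocytes, and Kupffer cells can recombine as well. Each mouse was measured in 4 libraries, which were averaged. Gclc was 22.1 ± 5.58 TPM in Gclc KO livers and 103 ± 28.5 TPM in Gclc WT livers (SD, n = 4 each; limma adjusted p = 0.000612), without overlap.

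The levels of the defining genes of the group are given here. They are members of the group and had to average 1 TPM or more to be included. Their presence is therefore no separate check of the label. Clec4f, Vsig4 and Timd4, which in mouse liver mark resident Kupffer cells, were present in every mouse, with lowest values of 44.6, 24.5 and 3.79 TPM, all in Gclc WT 4. In RNA from whole tissue, more cells of a type and more RNA per cell cannot be told apart, and this holds for each level given below.

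Promoter sequence is shown for the genes on which the comparison turns: Marco and Cd163, which differed most between genotypes, and Clec4f and Cd5l, which did not pass the test. Each line holds the 250 bases before the gene start, 5′ to 3′ on the strand of the gene, from a table of RefSeq promoters of build GRCm38.p6, in which 8 of the 10 genes were matched. Capitals mark matches to 4 motifs searched on both strands in a window of 300 bases, which also takes in 50 bases after the start. The motifs were TGACNNNGC (the core of the antioxidant response element bound by NRF2), GAGGAAGT (PU.1), TGCTGA (the core of a MAF recognition site) and TATAAA (the core promoter box). The windows are chr1:120505025-120505274 on the minus strand for Marco, chr6:124304401-124304650 on the plus strand for Cd163, chr6:83656117-83656366 on the minus strand for Clec4f and chr3:87357631-87357880 on the plus strand for Cd5l.
Marco: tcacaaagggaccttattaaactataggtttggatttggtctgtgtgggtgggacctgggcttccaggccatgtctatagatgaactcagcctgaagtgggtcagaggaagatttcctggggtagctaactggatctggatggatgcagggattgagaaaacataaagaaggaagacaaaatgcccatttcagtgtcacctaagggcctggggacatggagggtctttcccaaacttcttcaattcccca
Cd163: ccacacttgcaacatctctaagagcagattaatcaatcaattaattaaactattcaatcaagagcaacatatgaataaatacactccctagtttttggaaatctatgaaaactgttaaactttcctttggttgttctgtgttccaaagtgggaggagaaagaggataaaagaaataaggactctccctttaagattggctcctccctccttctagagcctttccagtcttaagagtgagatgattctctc
Clec4f: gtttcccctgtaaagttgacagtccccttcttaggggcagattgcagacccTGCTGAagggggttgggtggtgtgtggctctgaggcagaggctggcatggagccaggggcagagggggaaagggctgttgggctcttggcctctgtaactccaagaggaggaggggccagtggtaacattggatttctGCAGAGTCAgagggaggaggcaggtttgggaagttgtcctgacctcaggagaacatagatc
Cd5l: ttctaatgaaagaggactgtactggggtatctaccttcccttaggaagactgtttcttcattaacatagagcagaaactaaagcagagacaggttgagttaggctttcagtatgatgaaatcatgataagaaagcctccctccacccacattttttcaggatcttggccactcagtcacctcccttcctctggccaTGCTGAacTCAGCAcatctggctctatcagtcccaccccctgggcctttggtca

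None of these 4 letter strings was found in the window of Marco or of Cd163, nor in that of Cd68. Clec4f held the antioxidant response core 61 bases before its start, on the opposite strand, and a MAF core 199 bases before it. Cd5l held MAF cores 54 and 46 bases before the start, which face each other with 2 bases between them. Timd4 and Lyz2 held MAF cores before the start as well, Vsig4 held one after it, and Lyz2 also had an antioxidant response core 10 bases after its start. Of all 32851 promoters in the table, 19.5% held TGCTGA, 12.4% TGACNNNGC, 13.6% TATAAA and 3.20% GAGGAAGT. A match is a match of letters only, and no binding was measured.

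All 10 genes had a higher mean in Gclc KO livers than in Gclc WT livers, 5 passed the test (Marco, Cd163, Msr1, Vsig4 and Cd68), and 0 were called lower with limma (0 also at an unadjusted p under 0.05). Over all genes tested 12.8% were higher (1439 of 11284) and 8.61% lower (972), with limma and Benjamini-Hochberg adjustment. These counts became 1255 higher (11.1%) and 1405 lower after scaling by a trimmed mean of M values, and 1242 and 1412 after a median of ratios. The 10 genes had a median log2 fold change of 0.87, beside 0.09 over all genes tested, and their direction was the same under both scalings, where 4 of the 10 were called. Vsig4 lost its call there (limma adjusted p = 0.0573 and 0.0575). The summed level of the 10 genes was 943, 665, 1212 and 724 TPM in Gclc KO mice 1 to 4, against 414, 385, 720 and 254 TPM in Gclc WT mice 1 to 4. In this sum Gclc WT 3 exceeded Gclc KO 2.

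**Figure D1:**
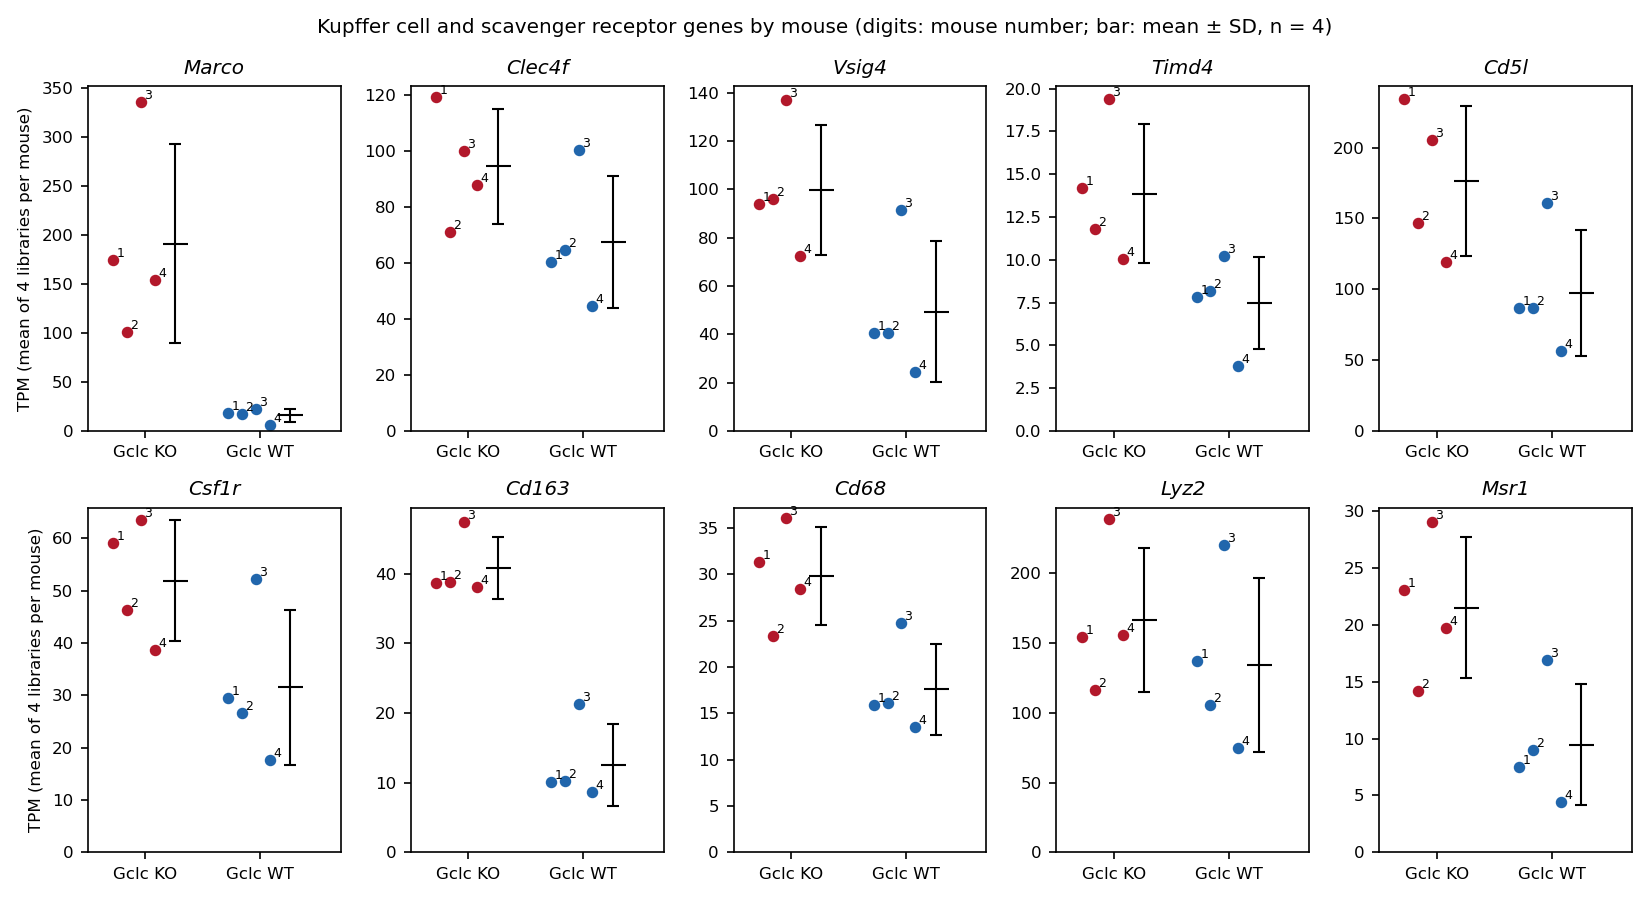
Level of each of the 10 genes in TPM (linear axis from 0) in each Gclc KO mouse (red, left) and Gclc WT mouse (blue, right), with the mouse number beside its point and the mean ± SD of 4 mice as a black bar. Marco and Cd163 are the only 2 panels without overlap between genotypes, and Gclc WT 3 is the highest blue point in all 10.

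Marco encodes a class A scavenger receptor that binds bacteria and inhaled or circulating particles. It was 175, 100.7, 336 and 154 TPM in Gclc KO mice 1 to 4, against 18.1, 17.5, 22.1 and 6.51 TPM in Gclc WT mice 1 to 4. The lowest Gclc KO mouse, mouse 2, had over 4 times the level of the highest Gclc WT mouse, and each of the 16 Gclc KO libraries lay above each Gclc WT library. Marco rose 11.1-fold (log2 fold change 3.47 with an SE of 0.41, limma adjusted p = 0.00108). It was the most abundant of the 10 genes in Gclc KO livers and ranked 7 of 10 in Gclc WT livers, where Lyz2 ranked 1. Its share of the summed level was 20.7 ± 5.32% in Gclc KO livers and 3.64 ± 0.972% in Gclc WT livers (SD, n = 4 each).

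Msr1 encodes the other class A scavenger receptor of the group, known for its uptake of modified low-density lipoprotein. It was 23.1, 14.2, 29.0 and 19.7 TPM in Gclc KO mice 1 to 4, against 7.49, 8.97, 16.9 and 4.44 TPM in Gclc WT mice 1 to 4. Gclc KO 2 lay below Gclc WT 3, and every other Gclc KO mouse lay above all Gclc WT mice. Msr1 rose 2.29-fold (log2 fold change 1.20 with an SE of 0.34, limma adjusted p = 0.0331).

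Cd163 encodes the receptor that takes up complexes of hemoglobin with haptoglobin. It was 38.7, 38.9, 47.5 and 38.1 TPM in Gclc KO mice 1 to 4, against 10.1, 10.3, 21.3 and 8.64 TPM in Gclc WT mice 1 to 4. The genotypes did not overlap, and 3 of the Gclc KO mice were within 1 TPM of each other. The 16 Gclc KO libraries again lay above all Gclc WT libraries. Cd163 rose 3.25-fold (log2 fold change 1.70 with an SE of 0.24, limma adjusted p = 0.00201). Marco and Cd163 were thus 2 of 10 genes higher without overlap, where 14.5% of all genes tested were higher and 10.2% lower without overlap.

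Vsig4 encodes a complement receptor by which Kupffer cells capture opsonised bacteria from the blood. It was 93.8, 95.9, 137 and 72.4 TPM in Gclc KO mice 1 to 4, against 40.7, 40.4, 91.6 and 24.5 TPM in Gclc WT mice 1 to 4. Gclc KO 4 lay below Gclc WT 3, and otherwise the genotypes were separate. Vsig4 rose 2.19-fold (log2 fold change 1.13 with an SE of 0.35, limma adjusted p = 0.0466). Cd68 encodes macrosialin, a glycoprotein of lysosomes in macrophages. It was 31.3, 23.3, 36.0 and 28.5 TPM in Gclc KO mice 1 to 4, against 15.9, 16.1, 24.7 and 13.5 TPM in Gclc WT mice 1 to 4. Gclc KO 2 lay just under Gclc WT 3. Cd68 rose 1.68-fold (log2 fold change 0.75 with an SE of 0.19, limma adjusted p = 0.0241), and its smaller change passed the test with the smallest error of the 10 genes.

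The other 5 genes did not pass the test. Cd5l encodes a secreted scavenger protein of macrophages, also known as AIM. It was 234, 147, 205 and 119 TPM in Gclc KO mice 1 to 4, against 86.6, 86.7, 161 and 56.3 TPM in Gclc WT mice 1 to 4, with Gclc KO 2 and 4 below Gclc WT 3. Its log2 difference was 0.90 with a 95% interval of 0.20 to 1.601 (limma adjusted p = 0.0689). Timd4 encodes a receptor for phosphatidylserine on dying cells and marks long-lived resident macrophages. It was the least abundant of the 10 genes, at 14.2, 11.8, 19.4 and 10.1 TPM in Gclc KO mice 1 to 4, against 7.85, 8.16, 10.2 and 3.79 TPM in Gclc WT mice 1 to 4. Only Gclc KO 4 lay below Gclc WT 3, and by less than 1 TPM. The log2 difference was 0.83 with a 95% interval of 0.22 to 1.44 (limma adjusted p = 0.0559).

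Csf1r encodes the receptor for the growth factors CSF1 and IL-34. It was 59.2, 46.4, 63.6 and 38.6 TPM in Gclc KO mice 1 to 4, against 29.6, 26.6, 52.2 and 17.6 TPM in Gclc WT mice 1 to 4. Gclc KO 2 and 4 lay below Gclc WT 3. The log2 difference was 0.78 with a 95% interval of 0.13 to 1.43 (limma adjusted p = 0.0847).

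Clec4f encodes a C-type lectin that in mouse liver is made by Kupffer cells almost alone. It was 119, 70.9, 100.2 and 87.7 TPM in Gclc KO mice 1 to 4, against 60.5, 64.6, 100.3 and 44.6 TPM in Gclc WT mice 1 to 4. Only Gclc KO 1 lay above Gclc WT 3, although every Gclc KO mouse lay above the other 3 Gclc WT mice. The log2 difference was 0.52 with a 95% interval of −0.03 to 1.057 (limma adjusted p = 0.155). Lyz2 encodes the lysozyme of myeloid cells, neutrophils and monocytes included. It was 154, 117, 239 and 155 TPM in Gclc KO mice 1 to 4, against 137, 106, 220 and 74.6 TPM in Gclc WT mice 1 to 4. The genotypes were interleaved, and the log2 difference of 0.37 had a 95% interval of −0.35 to 1.09 (limma adjusted p = 0.441). Lyz2 has a near copy, Lyz1, listed at 3.82 to 8.83 TPM over the 8 mice, and reads shared between the copies make both values uncertain.

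**Figure D2:**
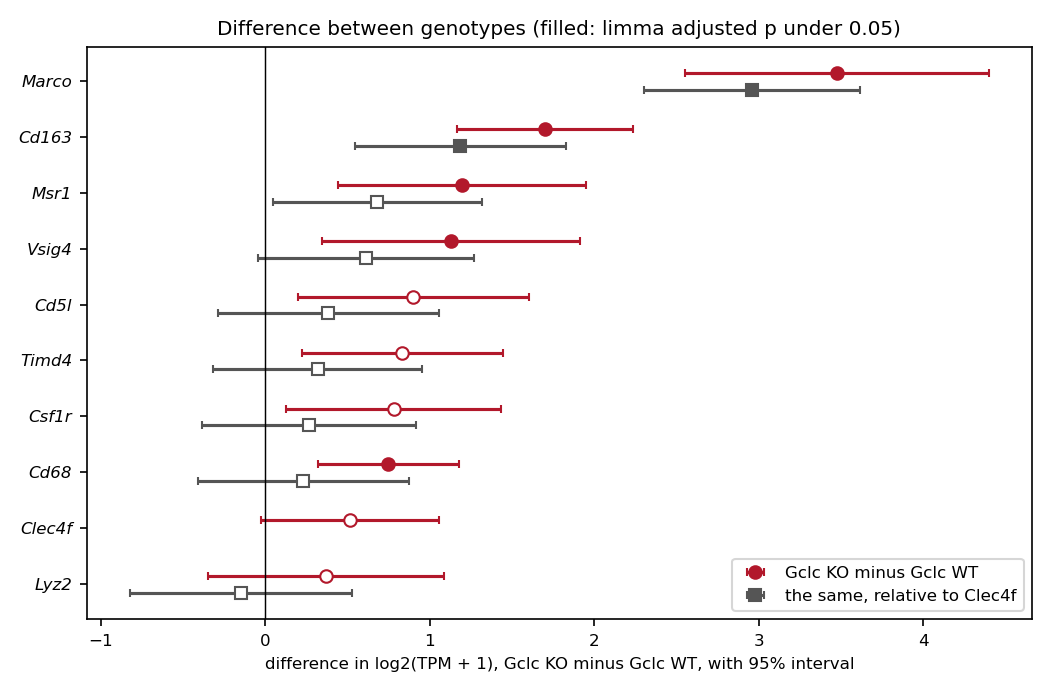
Difference in log2(TPM + 1), Gclc KO minus Gclc WT, with its 95% interval for each of the 10 genes (red circles) and for the same difference relative to Clec4f (grey squares), filled where the limma adjusted p was under 0.05. Marco (3.47) and Cd163 (1.70) lie farthest to the right and are the only 2 genes filled in both forms. The limma p-values of the grey squares are too small, and their intervals rest on the same errors. In an exact permutation test Marco, Cd163 and Msr1 each gave 0.0857 adjusted over 9 genes, a test that could not bring these genes alone under 0.05.

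One Gclc WT mouse set many of these overlaps. Gclc WT 3 was the highest Gclc WT mouse for 10 of 10 genes, and Gclc WT 4 the lowest for 10 of 10. Among the Gclc KO mice, mouse 3 was highest for 8 genes, and the lowest was mouse 2 for 5 genes and mouse 4 for the other 5. Apart from Gclc WT 3, every Gclc KO mouse lay above every Gclc WT mouse for 9 of 10 genes, Lyz2 being the exception, and so did 24.1% of all genes tested. Gclc WT 3 was singled out as highest in these same values, so leaving it out can only raise the differences of the 10 genes. The other genes were not picked that way, so the 24.1% is not a like comparison. The same holds for the fit that follows. Without Gclc WT 3, limma called 9 of the 10 genes higher, again all but Lyz2, beside 16.5% of all genes tested. The count was 2 without Gclc KO 1, 3 or 4, beside 7.89%, 8.79% and 7.54% of all genes, and 4 without Gclc KO 2, beside 12.6%. It was 2 without Gclc WT 1, 2 or 4, beside 8.69%, 6.20% and 7.08%. Without Gclc WT 1 and 3 together it was 8, beside 12.4%. Marco and Cd163 were called in each of these fits. Vsig4 lost its call without any 1 of the 7 mice other than Gclc WT 3 (limma adjusted p up to 0.113). Msr1 and Cd68 lost theirs without any 1 of the same mice except Gclc KO 2, with adjusted p up to 0.0851 and 0.0682.

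Gclc WT 3 also differed from its group in other ways. It was the only Gclc WT mouse with Xist, at 25.7 TPM, beside 30.2 and 22.8 TPM in Gclc KO 2 and 3 and at most 0.02 TPM in the other 5 mice. The labels give no sex. Summed over 12 neutrophil markers, it had 302 TPM, the highest of the Gclc WT mice, whose lowest sum was 3.45 TPM, whereas the Gclc KO mice ran from 7.98 to 23.8 TPM. In that list Gclc WT 3 had 104 TPM of S100a8 and 121.7 TPM of S100a9, and limma called 0 of the 7 neutrophil genes tested in either direction (0 also at an unadjusted p under 0.05). The part of these features in the level of the 10 genes was not tested. In the 5 mice without Xist, 8 of the 10 genes were called higher, beside 16.2% of all genes, and with Xist as a covariate 5, beside 1468 of 11284 genes. What the 2 library batches of the labels stand for is not given, and batch 1 alone gave 6 of the 10 genes called higher, beside 12.1% of all genes, and batch 2 alone 3, beside 9.20%.

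**Figure D3:**
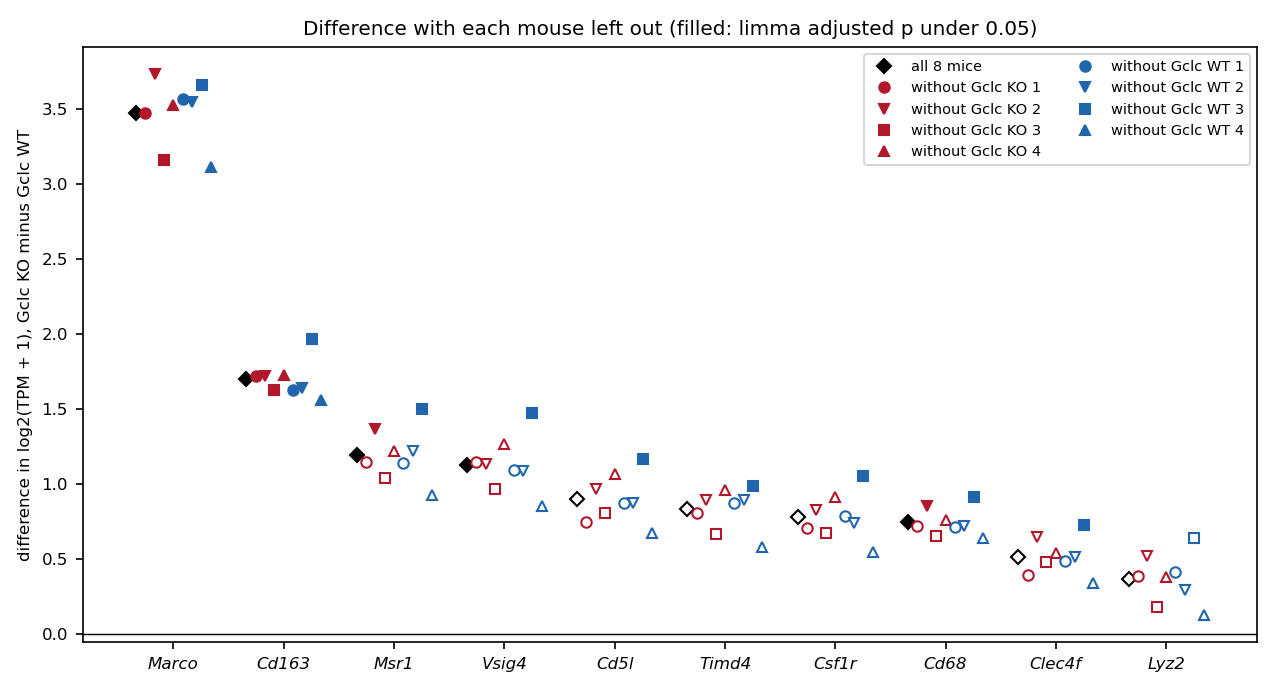
Difference in log2(TPM + 1), Gclc KO minus Gclc WT, for the 10 genes with all 8 mice (black) and with each Gclc KO mouse (red) or Gclc WT mouse (blue) left out, filled where the limma adjusted p was under 0.05. Leaving out Gclc WT 3 (blue squares) gives 9 filled genes, whereas Marco and Cd163 are filled in every fit.

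To ask whether the genes moved apart from one another, each was set against Clec4f within the same mouse. The ratio is one of transcripts and does not count cells. The ratio of Marco to Clec4f was 1.46, 1.42, 3.35 and 1.76 in Gclc KO mice 1 to 4, against 0.300, 0.271, 0.221 and 0.146 in Gclc WT mice 1 to 4. The genotypes did not overlap, and Gclc WT 3 lay among the other Gclc WT mice in this ratio. The ratio of Cd163 to Clec4f was 0.324, 0.548, 0.474 and 0.435 in Gclc KO mice 1 to 4, against 0.167, 0.160, 0.212 and 0.194 in Gclc WT mice 1 to 4, again without overlap. The share of all genes without overlap in this ratio was not counted, so how common it is cannot be said.

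Relative to Clec4f, Marco was higher by a log2 difference of 2.96 (95% interval 2.30 to 3.61) and Cd163 by 1.18 (0.54 to 1.83), and these were the only 2 of 9 genes called with limma (adjusted p = 1.1e-16 and 0.00406). By this measure 1.99% of all genes tested were higher and 13.8% lower. The Clec4f values of the same 8 mice enter every difference, so the standard errors were nearly alike (0.33 for both) and the limma p-values are too small. The 95% intervals and the shares of genes called rest on the same errors and carry the same limit. In an exact permutation test over the 70 splits of the 8 mice, two-sided, Marco, Cd163 and Msr1 each gave p = 0.0286, the smallest it can give, and 0.0857 adjusted over the 9 genes. With so few splits, the adjusted value could not fall under 0.05 for these genes alone, however large their differences. The permutation test therefore cannot decide whether they pass. The Msr1 ratio did not overlap either, again with no share over all genes beside it. It was 0.227 ± 0.0440 in Gclc KO livers and 0.133 ± 0.0288 in Gclc WT livers (SD, n = 4 each), with a log2 difference of 0.68 (0.04 to 1.32, limma adjusted p = 0.138). The other relative differences were 0.61 for Vsig4, 0.38 for Cd5l, 0.32 for Timd4, 0.26 for Csf1r, 0.23 for Cd68 and −0.15 for Lyz2, with limma adjusted p of 0.203 to 0.767. Without Gclc WT 3, limma called 4 genes higher relative to Clec4f, Msr1 and Vsig4 being added (adjusted p = 0.0307 and 0.0335), beside 2.31% of all genes.

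Other genes that mark Kupffer cells moved in the same direction in part. Of 11 tested, 6 were higher and 0 lower, with a median log2 fold change of 1.00. Slc40a1, the iron exporter ferroportin, was 230 ± 38.7 TPM in Gclc KO livers and 75.8 ± 16.01 TPM in Gclc WT livers (limma adjusted p = 0.000958). It is also counted in the hemoglobin list below, and the cells that made it are not told apart in whole liver. Spic, a transcription factor of iron-recycling macrophages, was 8.28 ± 6.27 TPM in Gclc KO livers and 1.12 ± 0.509 TPM in Gclc WT livers (SD, n = 4 each; limma adjusted p = 0.00699). C1qb and C1qc, subunits of the complement protein C1q that Kupffer cells secrete, rose 2.07-fold and 2.08-fold (limma adjusted p = 0.0159 and 0.0247). C1qb lost its call without Gclc WT 2 (adjusted p = 0.0510), and C1qc without any 1 of 5 mice (Gclc KO 1 or 3, Gclc WT 1, 2 or 4, adjusted p up to 0.0715). Fcna, a ficolin, was 86.3 ± 19.3 TPM in Gclc KO livers and 59.4 ± 10.5 TPM in Gclc WT livers and did not pass the test (limma adjusted p = 0.0614). Nr1h3, the nuclear receptor LXR-alpha that Kupffer cells share with hepatocytes, was named after its values were seen, as the 1 gene of the list that was lower without overlap. It was 59.2, 45.4, 61.1 and 45.1 TPM in Gclc KO mice 1 to 4, against 71.5, 61.7, 72.0 and 68.3 TPM in Gclc WT mice 1 to 4, and did not pass the test (limma adjusted p = 0.0659). The log2 difference was positive for 9 of the 11 genes. Folr2, whose mean was also lower in Gclc KO livers, overlapped between genotypes. Its values were 17.9, 13.3, 17.9 and 13.3 TPM in Gclc KO mice 1 to 4, against 18.7, 19.0, 27.5 and 15.5 TPM in Gclc WT mice 1 to 4.

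Genes that followed the mean log2 level of the 10 genes most closely over the 8 mice, among 5883 genes averaging 10 TPM or more, were C1qa (Pearson r = 0.994), C1qb (0.990), Ifngr1 (0.986), Itgb2 (0.986) and Fcgr3 (0.983). These values describe 8 mice of 2 genotypes and carry no test. C1qa is the remaining C1q subunit, Ifngr1 a subunit of the interferon-gamma receptor, Itgb2 the common chain of leukocyte integrins and Fcgr3 an antibody receptor.

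The transcription factors of macrophages did not move as a block. Of 12 tested, 2 were higher and 1 lower, with a median log2 fold change of 0.24. Besides Spic, Tfec, a factor of the MiT family found in macrophages, was 4.65 ± 1.31 TPM in Gclc KO livers and 1.61 ± 0.597 TPM in Gclc WT livers (SD, n = 4 each; limma adjusted p = 0.00779).

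Of 10 genes of the CSF1 and CSF2 pathways (ligands, receptors and signalling genes), 4 were higher and 0 lower, with a median log2 fold change of 0.62. Csf1, the ligand of the receptor encoded by Csf1r, was 18.1, 28.0, 17.5 and 17.0 TPM in Gclc KO mice 1 to 4, against 5.75, 5.25, 10.04 and 3.50 TPM in Gclc WT mice 1 to 4. The genotypes did not overlap, and Csf1 rose 3.07-fold (limma adjusted p = 0.00405), whereas the receptor itself did not pass the test. Csf2rb, the common beta chain of the receptors for GM-CSF, IL-3 and IL-5, was 10.2 ± 1.64 TPM in Gclc KO livers and 2.35 ± 1.07 TPM in Gclc WT livers (SD, n = 4 each; limma adjusted p = 0.00108). Its partner Csf2ra was 5.04 ± 1.91 TPM in Gclc KO livers and 2.75 ± 0.942 TPM in Gclc WT livers (limma adjusted p = 0.0896). The other 2 called genes act in signalling: Pik3cd, a kinase subunit of leukocytes, rose 1.92-fold and Tyrobp, an adaptor of myeloid receptors, 2.00-fold (limma adjusted p = 0.0260 and 0.0417). Pik3cd lost its call without Gclc KO 3 or Gclc WT 1, 2 or 4, and Tyrobp without any 1 of the 7 mice other than Gclc WT 3, with adjusted p up to 0.0747 and 0.113.

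Of 12 other scavenger receptors tested, limma called 0 in either direction, with a median log2 fold change of −0.07. At an unadjusted p under 0.05, 0 were higher and 1 lower. Stab1 and Stab2 of this list are also counted with the endothelial markers below. The count is therefore not one of macrophage receptors alone, and the cells that made these transcripts are not told apart. Cd36, a class B receptor for fatty acids and oxidised lipoprotein, was 48.2 ± 20.3 TPM in Gclc KO livers and 49.6 ± 15.5 TPM in Gclc WT livers (SD, n = 4 each; limma adjusted p = 0.864). Scarb1, the receptor for high-density lipoprotein, which hepatocytes make as well, was 111.1 ± 10.6 TPM in Gclc KO livers and 113 ± 18.5 TPM in Gclc WT livers (limma adjusted p = 0.933).

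Genes around the cargo of Cd163, hemoglobin and heme, included 8 of 10 that were higher and 0 that were lower, with a median log2 fold change of 1.64. Hmox1, which breaks down heme, was 159, 149, 209 and 155 TPM in Gclc KO mice 1 to 4, against 19.2, 18.3, 26.7 and 13.6 TPM in Gclc WT mice 1 to 4. It rose 8.39-fold without overlap (limma adjusted p = 9.4e-05). Slc48a1, a transporter that moves heme out of endosomes and lysosomes, was 128 ± 54.0 TPM in Gclc KO livers and 30.4 ± 3.24 TPM in Gclc WT livers (SD, n = 4 each; limma adjusted p = 0.00369). Fth1, the heavy chain of the iron store ferritin, rose 2.62-fold (limma adjusted p = 0.00307). Hmox1, Slc48a1 and Fth1 are known NRF2 targets and are not particular to macrophages. The 8 genes also include Slc40a1, from the Kupffer cell list above, and Hp, which encodes haptoglobin. Hp was listed at 19635 to 37811 TPM in Gclc KO mice and 2894 to 11356 TPM in Gclc WT mice. The count is therefore not one of macrophage genes, and the cells that made these transcripts are not told apart.

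**Figure D4:**
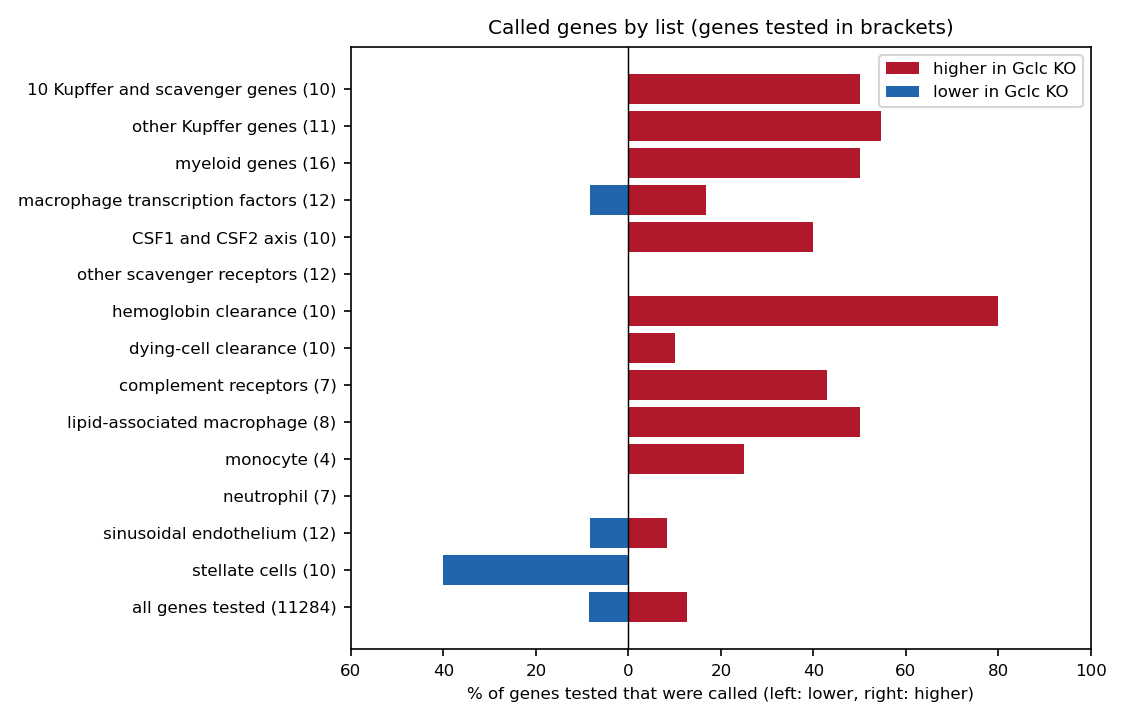
Share of the genes tested in each list that were called lower (blue, to the left) or higher (red, to the right) in Gclc KO livers with limma, with the number of genes tested in brackets. The hemoglobin list has 8 of 10 called higher and the other scavenger receptors 0 of 12 called, beside 12.8% higher and 8.61% lower over all genes tested.

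Of myeloid genes in general 8 of 16 were higher and 0 lower, with a median log2 fold change of 0.83 and a positive difference in 16 of 16. Cd14, the co-receptor for bacterial lipopolysaccharide, was 35.6, 77.9, 144 and 50.4 TPM in Gclc KO mice 1 to 4, against 3.94, 2.62, 6.28 and 2.55 TPM in Gclc WT mice 1 to 4. It rose 14.7-fold, with a log2 fold change of 3.88 (limma adjusted p = 0.000575), and hepatocytes can make it as well. Fcgr3 rose 2.75-fold and Ctss, the lysosomal protease cathepsin S, 2.36-fold (limma adjusted p = 0.00478 and 0.0133). Itgam, the alpha chain of complement receptor 3, rose 3.21-fold (adjusted p = 0.00956), and with Itgb2 and the C5a receptor gene C5ar1 it made 3 of 7 complement receptor genes that were higher, with 0 lower. Itgb2 lost its call without Gclc KO 3 or Gclc WT 2 or 4 (adjusted p up to 0.0614).

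Among 8 genes of lipid-associated and monocyte-derived macrophages, 4 were higher and 0 lower. Trem2, a lipid-sensing receptor of such macrophages, was 5.54, 3.04, 6.03 and 4.99 TPM in Gclc KO mice 1 to 4, against 0.66, 0.38, 1.68 and 0.00 TPM in Gclc WT mice 1 to 4. The genotypes did not overlap (limma adjusted p = 0.00369). Cd9 and Ctsd, which many cells make, rose 2.88-fold and 1.82-fold (limma adjusted p = 0.00989 and 0.00628). The log2 difference was positive for 6 of the 8 genes. At an unadjusted limma p under 0.05, 4 were higher and 1 lower. Fabp5, of the same list, had a lower mean in Gclc KO livers. It was 8.07, 21.1, 5.77 and 5.42 TPM in Gclc KO mice 1 to 4, against 11.9, 19.8, 80.1 and 19.7 TPM in Gclc WT mice 1 to 4. Spp1 was not called (limma adjusted p = 0.850). Of 10 genes for the uptake of dying cells, the process in which Timd4 acts, 1 was higher and 0 lower. That gene, the receptor kinase Mertk, was 17.0 ± 1.38 TPM in Gclc KO livers and 11.05 ± 3.49 TPM in Gclc WT livers (SD, n = 4 each; limma adjusted p = 0.0362), and lost its call without any 1 of the 7 mice other than Gclc WT 3 (adjusted p up to 0.0952).

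Markers of other cells of the liver are given beside these values. Of 4 monocyte markers tested, 1 was higher, Plac8, at 36.1 ± 6.71 TPM in Gclc KO livers and 14.9 ± 7.38 TPM in Gclc WT livers (SD, n = 4 each; limma adjusted p = 0.0112). Summed over 9 monocyte markers the range was 34.3 to 49.5 TPM in Gclc KO mice and 10.99 to 46.0 TPM in Gclc WT mice. Most of this sum in Gclc KO mice was Plac8, at 26.2 to 40.4 TPM, so it does not describe monocyte markers as a group. Ly6c2 was 0.11 to 1.17 TPM in Gclc KO mice and 0.65 to 6.44 TPM in Gclc WT mice. Ccr2 was 0.20 to 0.54 TPM in Gclc KO mice and 0.31 to 1.65 TPM in Gclc WT mice. Of 12 markers of sinusoidal endothelium 1 was higher and 1 lower, with sums of 140 to 233 TPM in Gclc KO mice and 147 to 227 TPM in Gclc WT mice. These were Lyve1 (log2 fold change 1.18, adjusted p = 0.0402) and Kdr (−0.58, adjusted p = 0.0360), each of which lost its call without any 1 of 6 mice, with adjusted p up to 0.105 and 0.0988. When the endothelial markers were used to scale each mouse, 6 of the 10 Kupffer cell and scavenger receptor genes were called higher, beside 5.87% of all genes tested. The endothelial values of each mouse enter every difference, as Clec4f did above, so these limma calls carry the same limit. Of 10 stellate cell and fibroblast markers 4 were lower and 0 higher, and Reln, which had the smallest adjusted p, fell by 0.76 on the log2 scale (limma adjusted p = 0.00876) and kept its call without any 1 mouse. The other 3 did not: Acta2 lost its call without Gclc KO 1 or 4 or Gclc WT 2 or 4, Col3a1 without Gclc KO 1, 2 or 3 or Gclc WT 1, 2 or 3, and Ecm1 without Gclc KO 1, 3 or 4 or Gclc WT 2, 3 or 4. Their adjusted p reached 0.0820, 0.0920 and 0.0927. The part of these cells in the level of the 10 genes was not tested.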

How the data were processed

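RNA-seq of liver from 4 Gclc KO and 4 Gclc WT mice was used, with 4 libraries per mouse told apart in the labels by batch and run. The authors deposited expression values in TPM for 32 libraries, each summing to 999315 to 999534. The submitters' processing notes name bcl2fastq 2.2, and the aligner, quantifier, build and annotation were not given in the sources used here. Since TPM keeps no depth, the number of reads behind each value is unknown, and counting intervals could not be computed. Genes above 0 numbered 12341 to 14016 per library. Of 20896 rows, 75 repeated a symbol with identical values and were left out.

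Libraries were averaged per mouse. Genes averaging 1 TPM or more were compared as log2(TPM + 1), the scale of all fold changes, which understates changes of low genes, with limma 3.58.1 in R 4.3.3 (mean-variance trend, two-sided, Benjamini-Hochberg adjusted p of 0.05 over all genes). For the comparison relative to Clec4f, the Clec4f value of each mouse was subtracted. Without such a subtraction, the p-values measure the spread between these mice. The model was tested on simulated data.

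The 10 genes and the gene lists were chosen with earlier results of these data known. The rule for named genes took Gclc, the 10 genes, up to 4 called genes per list with the smallest adjusted p, up to 2 abundant genes per list that were not called, and the 5 genes most alike by Pearson r. Lists of cholangiocyte, T and NK, B cell, dendritic, hepatocyte, pancreas and erythroid markers gave 1 of 4, 0 of 4, 0 of 1, 0 of 1, 1 of 7, 0 of 8 and 0 of 5 genes higher, and 0, 0, 1, 0, 0, 1 and 2 lower. Alternatives covered pseudocount, filter, scaling, fit, batch, run, block, cohort, Xist and mice left out. The fit to mice without Xist was added after the data were seen, as was the exact permutation test. 1 called gene of the transcription factor list is not reported here. Count models were not used.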

Additional observations from a re-analysis of the deposited data

Results flagged for a closer look

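Values here are log2(TPM + 1). In 15 of 172 groups of 4 mice, over 86 genes, 1 mouse lay far from the other 3, which is 8.72%. The rule weighs the gap to the nearest mouse against the range of the 4, so small differences can be flagged. Chance gives about 5%, or 1 in 20, for normal values and independent groups, and genes of the same mice are not independent. Of the 15, 4 were Gclc WT 3. Among the 10 Kupffer cell and scavenger receptor genes there was 1 such group: Cd163 in Gclc KO 3 was 5.60, against 5.29 to 5.32 in the other Gclc KO mice. Gclc WT 3 was high for Fcna (6.25 against 5.77 to 5.82), Ctsb, a lysosomal protease (8.39 against 7.63 to 7.72), Chil3, a monocyte marker (2.82 against 0.00 to 0.40), and Pik3cd, a leukocyte kinase subunit (1.77 against 0.98 to 1.07). Pik3cd was also high in Gclc KO 3 (2.74 against 1.93 to 1.98), as was the endothelial lectin Clec4g (6.27 against 5.49 to 5.62). Csf1 was high in Gclc KO 2 (4.86 against 4.17 to 4.25), and Nkg7, of T and NK cells, was low in Gclc WT 1 (0.93 against 1.58 to 1.69).

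The pancreatic genes Amy2a5 and Ctrb1 were 7.04 and 5.20 in Gclc WT 1 and 0.28 and 0.53 in Gclc KO 2, and listed at 0.00 in the other mice of each group. With the others at 0.00, the rule flags any value above it. Hba-a2, a hemoglobin chain, was listed at 0.00 in Gclc KO 2, against 5.89 to 7.07 in the other Gclc KO mice, and likewise at 0.00 in Gclc WT 1, with 7.83 to 8.88 in Gclc WT 2 to 4.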

How the results depend on the processing

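Of 27 alternatives, Marco and Cd163 were called in 27, Cd68 in 21, Msr1 in 18, Vsig4 in 13, Timd4 in 7, Cd5l and Csf1r in 5 each, Clec4f in 3 and Lyz2 in 0, and none of the 10 genes changed direction. Between 2 and 9 of the 10 genes were called higher with each mouse left out, 9 with the mouse as a random effect over 32 libraries (beside 2065 of 11284 genes in all), 8 without Gclc WT 1 and 3, 8 in mice without Xist (chosen after seeing the data), and 3 without a filter on low values (beside 1161 of 17019 genes), in batch 2 (1039 of 11290) or in run 1 (1141 of 11285). The number lower was 0 throughout. The fit over 32 libraries took a shared correlation between libraries of a mouse for all genes. Its p-values can be too small for genes that vary mainly between mice, as the number of mice is unchanged. Genes called higher over all genes numbered 662 with endothelial scaling and 700 to 1855 with each mouse left out, and genes called lower 349 and 556 to 950. Relative to Clec4f, 1 gene was called with a pseudocount of 10 and 2 to 4 with each mouse left out. The relative difference of Timd4 became −0.013 with a pseudocount of 10 and −0.034 in mice without Xist, and that of Lyz2 became 0.066 without Gclc WT 1 and 3. Apart from fits with fewer mice or libraries, the cause of these shifts was not tested.

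It is not settled whether the mouse numbers pair the samples. In the labels, mice of the same number carry tags close to each other, and what the tags stand for is not given. After removal of the group means, same-numbered mice 1 to 4 had correlations of 0.06, −0.12, 0.34 and 0.26. Gclc KO 3 and 4 correlated best with the Gclc WT mouse of their own number. Gclc KO 1 correlated best with Gclc WT 4, and Gclc KO 2 with Gclc WT 3. With the replicate block, 8 of the 10 genes were called higher, and over all genes 1341 were higher and 874 lower. With a cohort term that split the mice into high and low tags, 4 of the 10 genes were called higher, beside 1351 over all genes. As depth is unknown, the counting precision of low genes such as Timd4 and Trem2 cannot be given.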
